A study of Mus musculus with 147 samples.

Results

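The Krüppel-like factors are transcription factors that bind GC-rich and CACCC-containing DNA through zinc fingers at the carboxyl end of the protein. Their amino-terminal regions differ, and by these the family is divided into activators that recruit acetyltransferases, repressors that bind CtBP and repressors that bind Sin3. In vessels the family is known for factors induced by blood flow and for factors that switch smooth muscle cells between a contractile and a synthetic state. The 10 members were chosen by gene symbol, Klf2, Klf3, Klf4, Klf5, Klf6, Klf7, Klf9, Klf10, Klf13 and Klf15, and all were among the 35438 genes counted. The question was which of them, besides Klf2 and Klf10, differed between renin cells with and without the renin gene.

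Single YFP-positive cells were sorted from the kidney cortex of adult C57BL/6 mice, captured in the wells of a Fluidigm C1 chip and amplified with SMART-Seq v4. The WT renin cells came from 4 Ren1c+/+ Ren1c-YFP mice and 1 capture (51 cells), and the Renin-null cells from 12 Ren1c-/- Ren1c-YFP mice and 4 captures (96 cells), sequenced as the libraries YFP1 and YFP2 of 48 cells each. In both genotypes YFP was driven by the 5′ regulatory sequence of Ren1c, so that the sorted cells are those in which this sequence was or had recently been active, and male and female mice were used. Newborns carrying the Ren1c deletion were kept alive with saline injections, a treatment not mentioned for the WT mice. Since the mouse and capture behind each cell are not given, a genotype counted as 1 sample and was not tested against the other, and the genotypes cannot be told apart from their captures and libraries. Intervals are at 95% (Clopper-Pearson for shares), and the limit printed beside a count of 0 is that of 3 counts or cells of the total. Intervals of levels and ratios cover the counting of reads only, not of molecules, because the chemistry has no molecular identifiers. Those of shares take cells as independent draws. Neither kind covers the spread between cells, mice or captures.

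The deleted gene Ren1 was at 96023 counts per 1000000 (CPM) in WT cells and at 0.135 CPM in Renin-null cells. Akr1b7, an aldo-keto reductase that marks renin cells, was at 4528 and 2011 CPM. WT cells held a median of 1525972 counts per cell (26401 to 17124854) and Renin-null cells 4107950 (3628 to 14505243). The median mitochondrial share was 60.4% in WT cells and 12.4% in Renin-null cells. Values are therefore also given for the 15 WT cells and 57 Renin-null cells that passed a filter (100000 counts or more, 1000 genes or more, mitochondrial share of 25% or less), called filtered cells below. A total of 4 pairs of Renin-null wells were nearly identical across genes (r of at least 0.974, against 0.896 for the next pair), and 3 of these pairs joined a YFP1 well with a YFP2 well, so the libraries are not fully separate samples. With each such pair counted once, the Klf10 log2 ratio was 7.61 in place of 7.54, that of Klf15 (a lower bound) was 6.18 in place of 7.06, and none of the 10 members changed direction.

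Summed over both libraries, markers of other kidney cells were higher in Renin-null than in WT cells, but in YFP1 the sums of the endothelial and collecting duct markers were below WT. The summed level of 7 proximal tubule markers was 56.8 CPM in WT cells against 844 CPM in Renin-null cells (1061 in YFP1, 664 in YFP2). The 5 podocyte markers summed to 86.1 and 559 CPM (142.6 in YFP1, 906 in YFP2), the 11 endothelial markers to 188 and 344 CPM (65.7 in YFP1, 576 in YFP2) and the 4 markers of the loop and distal tubule to 0.126 and 104.01 CPM. Ehd3 alone gave 147.8 CPM of the WT endothelial sum. Taken singly, Cdh5, Kdr, Tek, Plvap and Eng were above WT in YFP1, and Pecam1, Flt1, Tie1, Emcn and Ehd3 were below. Collecting duct markers (5 genes) summed to 24.3 and 83.7 CPM (7.57 in YFP1, 147.3 in YFP2) and macrophage markers (6 genes) to 0.985 and 3.94 CPM. In WT cells Cdh5, Tek, Egfl7 and Plvap of the endothelial list, Podxl of the podocyte list, Slc5a2 of the proximal tubule list, Pvalb of the distal tubule list and Cd68, C1qa, C1qb and Adgre1 of the macrophage list were at 0, and in Renin-null cells only Pvalb, C1qb and Adgre1. By summed CPM, smooth muscle markers were close between genotypes (10455 and 11546 CPM), and fibroblast markers were at 173 and 1159 CPM. By cell, smooth muscle markers were higher in Renin-null cells. At least 100 CPM of them was held by 36 of 51 WT cells and 85 of 96 Renin-null cells. The difference of mean log2(CPM + 1) was 2.74 for Tagln, 1.86 for Cnn1, 1.48 for Acta2 and 1.44 for Myh11. The median gene was at 0.20 on this scale. A total of 37 WT cells and 32 Renin-null cells held less than 100 CPM of each of the endothelial, podocyte, tubule, collecting duct and macrophage lists, and the level of each member is also given for these marker-free cells. Of them, 5 WT and 17 Renin-null cells passed the filter, and the median mitochondrial share was 63.2% in the marker-free WT cells against 7.51% in the other 14 WT cells, so that leaving out cells with markers also left out most of the filtered WT cells (10 of 15).

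The zinc finger regions of the members are similar enough that stretches of coding sequence are shared, which bears on whether a read can be assigned to one member. The 4 longest such stretches among the 45 pairs of members were read from the longest coding transcripts of GENCODE M21, and capitals are not used because every base matches.
Klf6 and Klf7: gacaggtgtttctccaggtctgacca
Klf5 and Klf9: tcggatgagctgacccgccactac
Klf2 and Klf7: cacacaggtgagaagcctta
Klf2 and Klf10: acacacacaggtgagaag
The longest, of 26 bases, is at coding bases 901 to 926 of 954 in Klf6 and 850 to 875 of 903 in Klf7, close to the end of each reading frame. The median pair shared 12 bases. All these stretches were shorter than 31 bases, the default word length of the Salmon index. Over whole transcripts, a member shared at most 5 words of that length with other members (Klf13). Words shared with any other gene made up 0% of the words of Klf2, Klf6, Klf9 and Klf15, 0.314% for Klf10, 0.787% for Klf13 and 4.53% for Klf3. Klf7 was the exception, with 38.7% of its words shared, 3146 of them with Gm26649, a noncoding transcript on the opposite strand of the same locus. Library preparation did not keep strand, so reads of Klf7 and Gm26649 in that stretch cannot be told apart, and Klf7 values are uncertain for this reason.

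The 250 bases before the start site are shown for Klf13 and Klf15, the members with the highest and the lowest levels in both genotypes. Sequences are from RefSeq on GRCm38.p6, 8 of the 10 members were matched (not Klf5 and Klf10), and capitals mark the GC box GGGCGG and the CACCC box, on either strand.
Klf13, chr7:63938916-63939165, minus strand: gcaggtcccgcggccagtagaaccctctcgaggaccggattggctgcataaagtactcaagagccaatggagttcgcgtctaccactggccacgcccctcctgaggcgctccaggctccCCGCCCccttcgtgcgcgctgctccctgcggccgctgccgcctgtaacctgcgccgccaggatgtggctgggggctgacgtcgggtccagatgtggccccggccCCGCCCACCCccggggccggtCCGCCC
Klf15, chr6:90462326-90462575, plus strand: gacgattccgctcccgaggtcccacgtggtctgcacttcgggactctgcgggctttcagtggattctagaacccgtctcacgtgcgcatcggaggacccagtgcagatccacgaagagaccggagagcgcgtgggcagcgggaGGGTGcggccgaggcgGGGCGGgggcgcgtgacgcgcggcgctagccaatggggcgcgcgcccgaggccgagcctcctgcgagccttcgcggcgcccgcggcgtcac
The Klf13 sequence held 3 GC boxes, one of them overlapping its single CACCC box, and the Klf15 sequence held 1 of each. Over the 300 bases around the start (250 before, 50 after), GGGCGG was found in 7 of 8 members and in 35.7% of 32851 promoters, and CACCC in 6 of 8 members and in 57.5% of promoters. The short CRE motif TGACG, bound by the CREB family that acts in renin cells, was in 6 of 8 members and 20.8% of promoters, and CCAAT in 4 of 8 and 37.4%. TATAAA and the full CRE TGACGTCA were in none of the 8 windows. The GC content of the windows was 58.3% (Klf7) to 76.7% (Klf3), against a median of 52.7% over all promoters.

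Across all cells (51 WT, 96 Renin-null), 3 of the 10 members were more than 4-fold higher in Renin-null cells (Klf5, Klf10 and Klf15) and none was more than 4-fold lower. Of the 15542 genes with at least 100 summed counts, 41.7% were more than 4-fold higher and 11.3% more than 4-fold lower, so a count of 3 of 10 was not above the share of all genes. The median log2 ratio (Renin-null over WT, summed CPM) was 1.31 for the members and 1.29 for all genes. Among the 6405 genes with at least 10000 counts the median was 0.73, 30.0% were more than 4-fold higher and 9.56% more than 4-fold lower. The closeness of the members to all genes depended on the cells used and their weighting. With the mean of log2(CPM + 1) the medians were 1.18 (members) and 0.20 (all genes), and in marker-free cells 4.58 and 1.63. Without the highest cell of each gene they were 1.54 and 2.08. In both Renin-null libraries 8 members were above WT, against 48.6% of genes, Klf7 was lower in both (25.9% of genes) and Klf9 moved in opposite directions (25.5% of genes). The plot of the ratios shows Klf5, Klf10 and Klf15 apart from the other members.

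**Figure D1:**
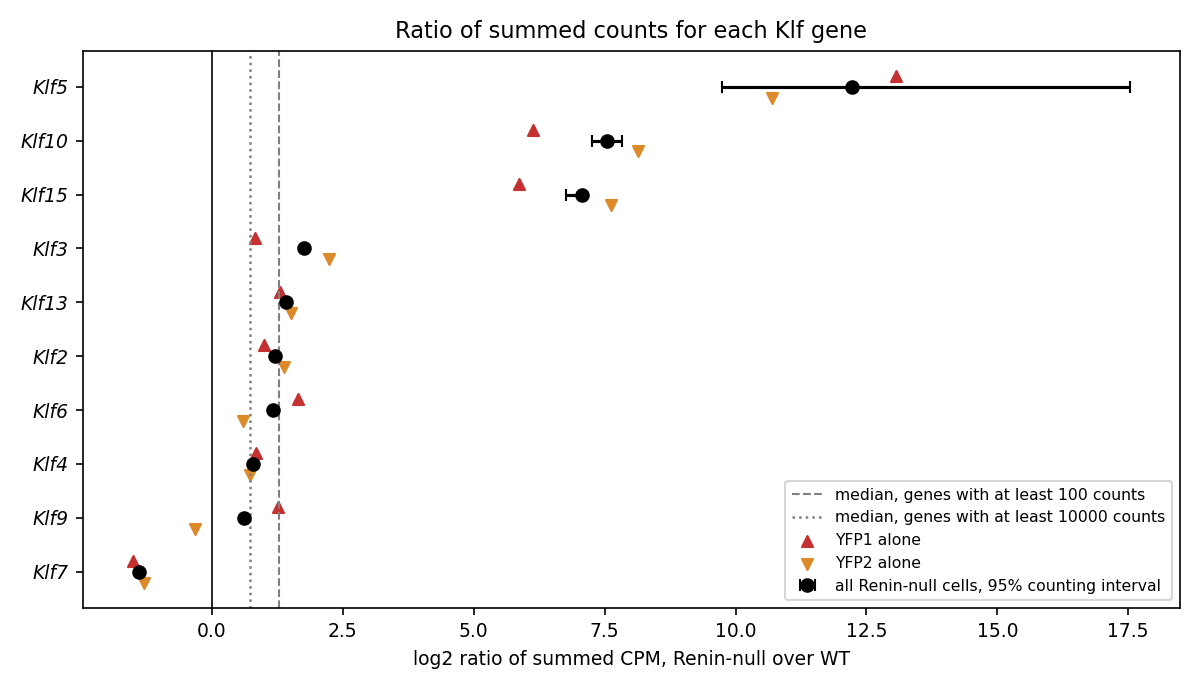
Log2 ratio of summed CPM, Renin-null over WT, for each of the 10 Klf genes. Black points are all Renin-null cells with the 95% counting interval (Klf15 is a lower bound, with WT set to 3 counts), triangles are each Renin-null library alone, and vertical lines mark the median of all genes at 1.29 and of genes with at least 10000 counts at 0.73; Klf2, Klf3, Klf4, Klf6, Klf9 and Klf13 lie near these lines.

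Per kilobase of the longest coding transcript, Klf13 had the highest level in both genotypes (83.7 CPM per kb in WT, 223 in Renin-null), followed by Klf6 (82.4 and 184) and Klf2 (73.2 and 169). The order of Klf13 and Klf6 was not stable between libraries, since Klf6 was at 257 and Klf13 at 206 CPM per kb in YFP1. Below these in WT cells came Klf9 (33.8), Klf7 (32.8), Klf4 (27.1) and Klf3 (23.6), and then Klf10 (0.169), Klf5 (0.00151) and Klf15 (0 counts). In Renin-null cells Klf3 was at 79.6, Klf9 at 51.5, Klf4 at 46.6, Klf10 at 31.5, Klf7 at 12.5, Klf5 at 7.23 and Klf15 at 0.815 CPM per kb. This order held in neither library. In YFP1 the same members ran Klf9 (80.9), Klf4 (48.6), Klf3 (41.5), Klf5 (12.9), Klf10 (11.8), Klf7 (11.5) and Klf15 (0.358), and in YFP2 Klf3 (111.4), Klf10 (47.9), Klf4 (45.0), Klf9 (26.9), Klf7 (13.3), Klf5 (2.49) and Klf15 (1.197). Klf10 lay far below Klf7 in WT cells, level with it in YFP1 and above it in YFP2.

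**Figure D2:**
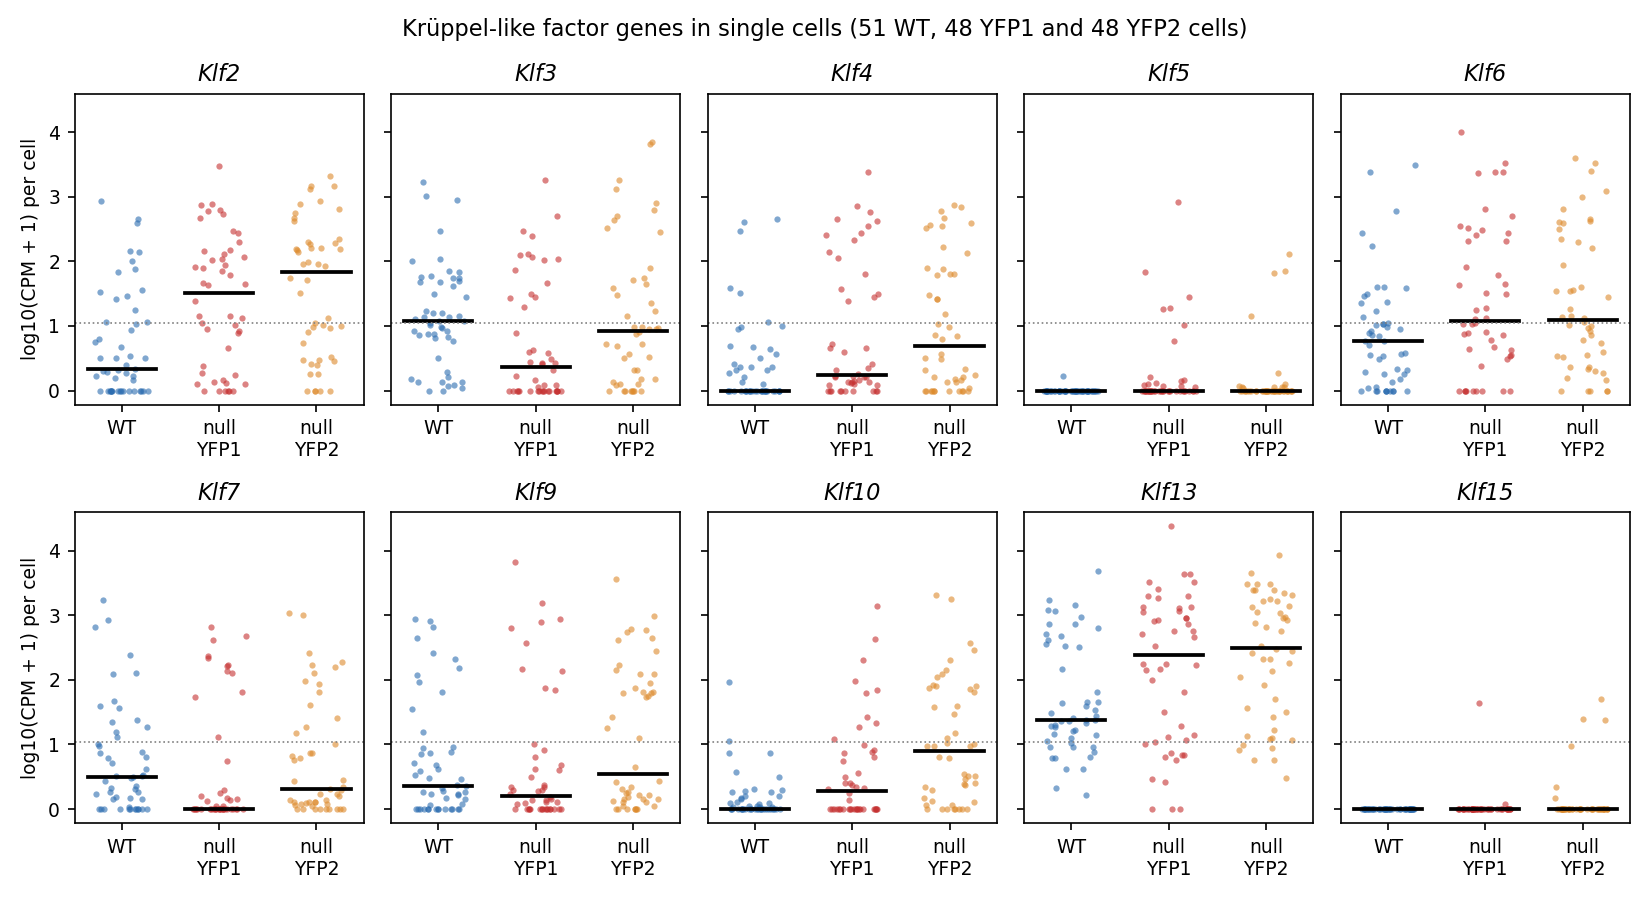
Level of each Klf gene in every cell as log10(CPM + 1), for 51 WT cells and 48 cells each of the Renin-null libraries YFP1 and YFP2. Points are cells, black bars are medians and the dotted line is 10 CPM; Klf13 has the highest medians, and most cells lie at or near 0 for Klf5 and Klf15.

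Klf10, a Sin3-binding factor first described as an early gene induced by TGF-beta, was, with Klf5, one of 2 members above the median gene in each alternative in which all genes were compared. It is at chr15:38291463-38300706 (minus strand, GRCm38). In WT cells it ranged from 0 to 92.9 CPM with a median of 0, and in Renin-null cells from 0 to 2070 CPM with a median of 1.75 (0.914 in YFP1, 6.92 in YFP2). The distributions overlapped at the low end, and no WT cell but 11 Renin-null cells reached 100 CPM. The highest WT cell held 45 counts of Klf10, and the summed level was 0.515 CPM, against 95.8 CPM (38211 counts) in Renin-null cells. The log2 ratio was 7.54 (7.26 to 7.83), with 6.12 in YFP1 and 8.14 in YFP2, and 1.05 to 10.51 under the alternatives.

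The share of cells with Klf10 at 10 CPM or more was 3.92% in WT (2 of 51, 0.478% to 13.5%) and 30.2% in Renin-null cells (29 of 96, 21.3% to 40.4%). In filtered cells it was 0 of 15, which allows a share of up to 20.0% (Clopper-Pearson upper bound 21.8%), and 20 of 57 (35.1%, 22.9% to 48.9%). After each cell was thinned to 62000 counts, which left out 2 WT and 13 Renin-null cells, a count of Klf10 was found in 2 of 49 against 33 of 83 cells. The highest cell held 44.5% of the Renin-null counts, and the log2 ratio was 7.55 with the highest cell (the one with the most counts of the gene) of each genotype left out. The 29 Renin-null cells with Klf10 at 10 CPM or more had a median of 5526711 counts and 5.45% mitochondrial counts, against 3670435 and 15.6% in the other 67. Their median proximal tubule marker level was 36.8 CPM against 18.2 CPM, their fibroblast marker level 324 against 158 CPM and their smooth muscle marker level 3839 against 7189 CPM. In marker-free cells Klf10 was at 0.9702 CPM in WT (2 of 37 cells at 10 CPM or more) and 226 CPM in Renin-null cells (9 of 32 cells), a log2 ratio of 7.86.

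Klf5, an activator linked to proliferation of smooth muscle and epithelium, was at 1 count in WT cells and 9665 counts in Renin-null cells (chr14:99298691-99315036, plus strand). In WT it ranged from 0 to 0.696 CPM with a median of 0, and in Renin-null cells from 0 to 837 CPM with a median of 0. The log2 ratio was 12.23, with a counting interval of 9.75 to 17.53. One YFP1 cell held 77.6% of the Renin-null counts (7498), and that cell had the lowest smooth muscle marker level of the 96 (16.0 CPM). Without it and the WT cell with the count, the WT group was at 0 and the log2 ratio was at least 8.51. Of 96 Renin-null cells, 9 were at 10 CPM or more (9.38%, 4.38% to 17.1%), 5 in YFP1 and 4 in YFP2, and 0 of 51 WT cells were, which allows up to 5.88% (Clopper-Pearson upper bound 6.98%). The median proximal tubule marker level was 140 CPM in these 9 cells and 12.5 CPM in the other 87. The median renin cell marker level was 6.15 against 467 CPM (3 of the 9 held at least 100 CPM). For collecting duct markers the medians were 35.7 and 0 CPM. Smooth muscle markers were at a median of 11327 against 5452 CPM (6 of the 9 and 79 of the 87 held at least 100 CPM). These 9 cells also had more counts (median 6550061 against 3670435) and a lower median mitochondrial share. The part of cells with such markers in the Klf5 difference was not tested. In marker-free cells Klf5 was at 0.0124 CPM (1 count) in WT and 66.7 CPM (7535 counts) in Renin-null cells (log2 ratio 12.39), and 2 of 32 Renin-null cells were at 10 CPM or more. The same YFP1 cell held 99.5% of these Renin-null counts, and without the highest cell of each genotype 37 counts were left against 0 in WT, a log2 ratio of at least 3.23.

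Klf15, a factor induced by glucocorticoids that acts on amino acid metabolism, was at 0 counts in WT cells, which allows up to 0.0152 CPM, and at 807 counts (2.02 CPM) in Renin-null cells (chr6:90462576-90475238, plus strand). Against a floor of 3 counts in the WT group it was at least 133.5-fold higher. The counts were in 8 of 96 cells, 2 in YFP1 and 6 in YFP2, and 4 cells reached 10 CPM, with 49.3, 43.6, 23.8 and 23.0 CPM. These 4 cells had a median of 2107 CPM of proximal tubule markers, against 16.8 CPM in the other 92, and 804 CPM of collecting duct markers against 0 (2 of the 4 held at least 100 CPM). They were also above the other 92 in renin cell markers (3591 against 330 CPM) and smooth muscle markers (15641 against 5237 CPM). In the 32 marker-free Renin-null cells Klf15 was at 0 counts, so no ratio was taken there.

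Klf2 and Klf4 are activators that the Mekk3-Mek5-Erk5-Mef2 cascade induces in endothelium under flow, and Klf4 also acts in pluripotency and in the change of smooth muscle phenotype. Klf2 (chr8:72319033-72321656, plus strand) ranged from 0 to 859 CPM in WT cells with a median of 1.13 and from 0 to 2987 CPM in Renin-null cells, median 44.8. Klf4 (chr4:55527143-55532466, minus strand) ranged from 0 to 446 CPM with a median of 0 in WT and from 0 to 2431 CPM with a median of 1.42 in Renin-null cells. Their values overlapped widely between genotypes, and the log2 ratios of 1.21 and 0.78 were below that of the median gene (1.29) and above that of genes with at least 10000 counts (0.73). Both were more than 4-fold higher with the mean over cells of CPM (2.22 and 2.18, as were 49.1% of genes), in thinned cells (2.42 and 2.24, 38.2% of genes) and with SCTransform (2.33 and 2.51, 47.9% of genes), so their place against the median gene depended on how cells were weighted. The share of cells at 10 CPM or more was 29.4% in WT and 58.3% in Renin-null cells for Klf2 and 11.8% and 36.5% for Klf4. In filtered cells it was 11 of 15 against 40 of 57 for Klf2 and 5 of 15 against 28 of 57 for Klf4, with overlapping intervals. Among genes with at least 10000 counts the median share was 9.80% in WT and 15.6% in Renin-null cells, and most of them had the higher share in Renin-null cells.

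The ratios of Klf2, Klf3 and Klf4 were larger in marker-free cells, where most WT cells were outside the filter. The WT cell with the most Klf4 counts (43.4% of them, at 412 CPM) was also the highest for Klf7, and it had the highest endothelial marker level of the 51 (1626 CPM) together with 257913 CPM of renin cell markers. The WT cell with the highest Klf4 level (446 CPM) held 1.75 CPM of endothelial and 666 CPM of podocyte markers. In marker-free cells the level of Klf2 was 15.1 CPM in WT against 361 CPM in Renin-null cells (log2 ratio 4.58), with 5 of 37 and 18 of 32 cells at 10 CPM or more. Klf4 was at 5.19 and 173 CPM (log2 ratio 5.06), with 2 of 37 and 6 of 32 cells at 10 CPM or more, and Klf3 at 18.2 and 470 CPM (4.69). A single Renin-null cell held 89.05% of these Klf3 counts, and with the highest cells removed the ratio was 2.10, against 5.22 for Klf2 and 5.84 for Klf4. Cell quality moved with these values, since Klf2 was at 10 CPM or more in 11 of 15 filtered WT cells and in 4 of the 36 others. In all filtered cells the log2 ratio was 0.95 for Klf2, 1.59 for Klf3, 0.54 for Klf4 and -1.66 for Klf7. In cells that were both filtered and marker-free it was 3.76, 7.47, 4.37 and 1.81, with 5 WT and 17 Renin-null cells, and the median gene was at 2.04. Of 9 members with a ratio in the 37 and 32 marker-free cells, 6 were more than 4-fold higher (Klf2, Klf3, Klf4, Klf5, Klf7 and Klf10), against 46.3% of 14145 genes, none was lower, against 16.3%, and the median gene was at 1.63.

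Klf6 and Klf7 are a closely related pair of activators, the first induced early in injured liver and vessel wall and the second studied mainly in neurons and fat. Klf6 (chr13:5861482-5870394, plus strand) ranged from 0 to 3167 CPM in WT with a median of 4.87 and from 0 to 10222 CPM in Renin-null cells, median 11.1. Its log2 ratio of 1.16 (1.64 in YFP1, 0.59 in YFP2) was below that of the median gene, as it was in 12 of 16 alternatives. It was above the median gene in YFP1 (1.64 against 0.68) and in thinned cells (1.67 against 1.36). The same held with log2(CPM + 1) (1.71 against 0.20) and log2(CPM + 10) (1.19 against 0.090). The highest Renin-null cell held 29.5% of the counts and had the second highest level of loop and distal tubule markers (3619 CPM). In marker-free cells Klf6 was lower in Renin-null than in WT cells (137.7 against 349 CPM, log2 ratio -1.34), although 15 of 32 Renin-null and 8 of 37 WT cells were at 10 CPM or more. One WT cell, at 3167 CPM, held 87.4% of these WT counts, and without the highest cell of each genotype Klf6 was higher in Renin-null cells (83.1 against 48.5 CPM, log2 ratio 0.78).

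Klf7 (chr1:64029447-64122282, minus strand) was the only member lower in Renin-null cells, at 251 against 95.6 CPM (log2 ratio -1.39, -1.51 in YFP1 and -1.30 in YFP2). A 2-fold lower level was found in 18.4% of all genes. It ranged from 0 to 1748 CPM with a median of 2.16 in WT and from 0 to 1097 CPM with a median of 0.379 in Renin-null cells, and the distributions overlapped. One WT cell held 60.2% of the WT counts, and with the highest cell of each genotype left out the log2 ratio was -0.56. The shares at 10 CPM or more were nearly equal, 27.5% (15.9% to 41.7%) in WT and 27.1% (18.5% to 37.1%) in Renin-null cells. In marker-free cells the direction turned, with 36.1 CPM in WT against 225 CPM in Renin-null cells (log2 ratio 2.64). One WT cell held 95.04% of these WT counts, and without the highest cells the ratio was 6.23.

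**Figure D3:**
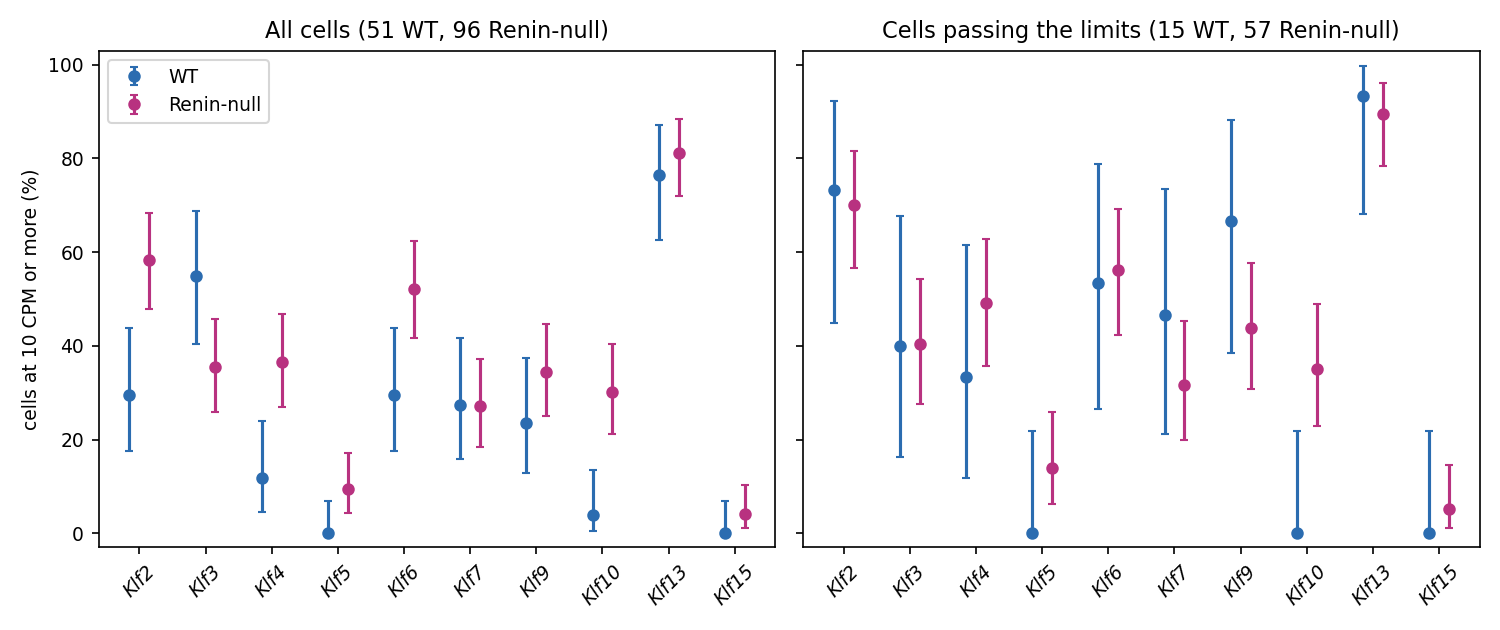
Percent of cells with each Klf gene at 10 CPM or more, for all cells (left) and filtered cells, those passing the limits (right). Points are shares and bars are 95% Clopper-Pearson intervals, which take cells as independent draws. In filtered cells Klf10 is at 0 of 15 WT and 20 of 57 Renin-null cells. Over all cells, 76.9% of the 15542 genes tested had the higher share in Renin-null cells, and the overlap of intervals was not compared with that of other genes.

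Klf3, a repressor that binds CtBP, gave opposite answers by sum and by cell (chr5:64803388-64832901, plus strand). It ranged from 0 to 1725 CPM in WT with a median of 10.8 and from 0 to 7048 CPM in Renin-null cells, median 2.79 (1.34 in YFP1, 7.502 in YFP2). The summed level was higher in Renin-null cells (416 against 123.2 CPM, log2 ratio 1.76), while the difference of the mean log2(CPM + 1) was -0.66. By library the log2 ratio of summed CPM was 0.82 in YFP1 and 2.24 in YFP2, so it passed 4-fold in YFP2 only. One WT cell held 85.4% of the WT counts, and with the highest cell of each genotype left out the log2 ratio was 3.96. The share of cells at 10 CPM or more was 54.9% (28 of 51) in WT and 35.4% (34 of 96) in Renin-null cells. The higher WT share was in the WT cells outside the filter, where 22 of 36 were at 10 CPM or more, against 6 of 15 filtered WT cells. Filtered Renin-null cells were at 23 of 57, a share of 40.4% against 40.0% in filtered WT cells.

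Klf9 and Klf13 belong with Klf10 to the Sin3-binding repressors. Klf9, induced by glucocorticoid and thyroid hormone (chr19:23141226-23168134, plus strand), ranged from 0 to 869 CPM with a median of 1.31 in WT and from 0 to 6776 CPM with a median of 0.998 in Renin-null cells. Its log2 ratio was 0.61, with 1.26 in YFP1, -0.33 in YFP2 and -0.10 with TMM scaling, so it had no common direction, and one YFP1 cell held 34.6% of the Renin-null counts. In marker-free cells it was at 1.07, and at -0.16 without the highest cell of each genotype. Klf13, known as a regulator of chemokine and heart genes (chr7:63886351-63938915, minus strand), ranged from 0.650 to 4822 CPM with a median of 23.3 in WT and from 0 to 24126 CPM with a median of 314 in Renin-null cells. It was the most widely found member, at 10 CPM or more in 39 of 51 WT and 78 of 96 Renin-null cells. Its log2 ratio by summed CPM was 1.41 (1.30 in YFP1, 1.503 in YFP2), close to the median gene, and in marker-free cells 0.96 (0.86 without the highest cells). Klf13 lay well above the median gene with log2(CPM + 1) (1.90 against 0.20) and log2(CPM + 10) (1.76 against 0.090). It was below the median gene in 4 of 16 alternatives. In filtered cells its median was 633 CPM in WT against 924 CPM in Renin-null cells.

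The members were also counted per cell. At 10 CPM or more, WT cells held a median of 2 of the 10 members (0 to 7) and Renin-null cells 4 (0 to 8). In 7 WT cells and 1 Renin-null cell there was none. In filtered cells the median was 4 in both genotypes, and in thinned cells it was 3 and 4. The number of members per cell went down with the mitochondrial share (Spearman rho -0.63 over 51 WT cells and -0.48 over 96 Renin-null cells, given as descriptions of cells that share libraries and differ in depth). The summed level of the 10 members was 1627 CPM in WT against 3522 CPM in Renin-null cells (3563 in YFP1, 3487 in YFP2).

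**Figure D4:**
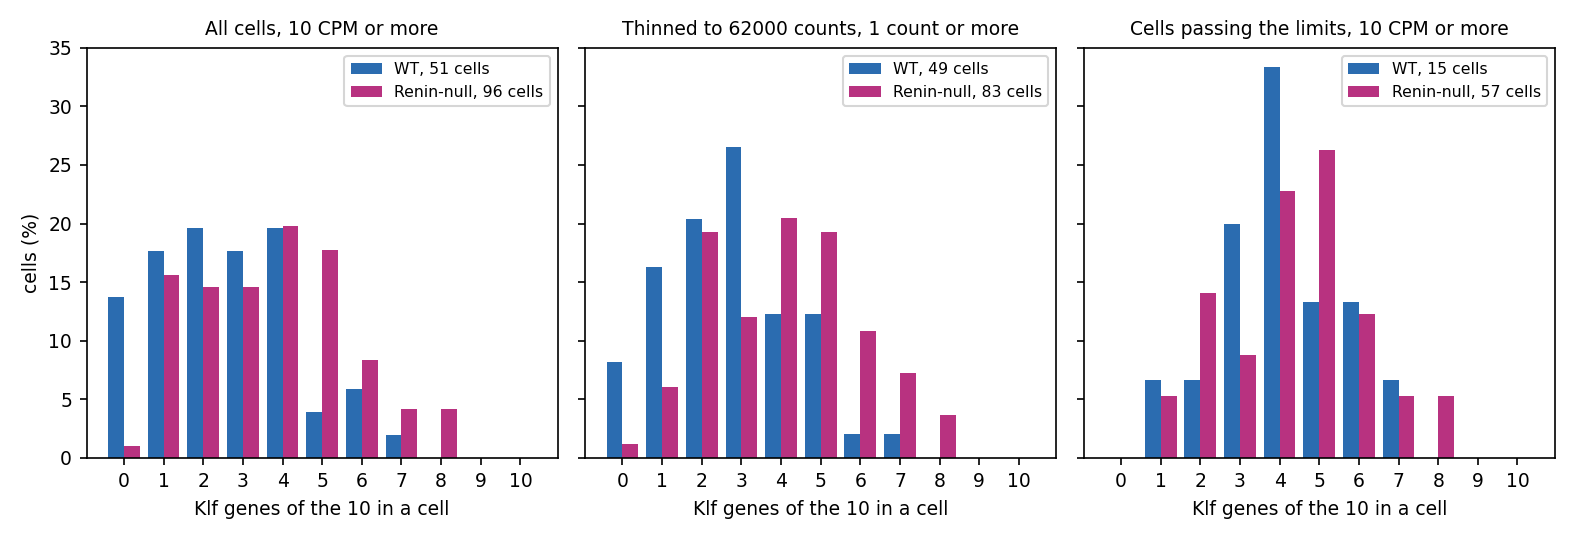
Percent of cells by the number of the 10 Klf genes found in the cell, for all cells at 10 CPM or more (left), cells thinned to 62000 counts with at least 1 count (middle) and filtered cells at 10 CPM or more (right). The medians are 2 (WT) and 4 (Renin-null) at left, 3 and 4 in the middle and 4 and 4 at right.

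Most pairs of members were weakly correlated from cell to cell, and a few were not. Over the 45 pairs, the median Spearman rho across the 96 Renin-null cells was 0.17, the highest 0.38 (Klf4 with Klf6), and in the 57 filtered cells the median was 0.05 and the highest 0.50, for the same pair. Across the 51 WT cells the median of 36 pairs was 0.14, with Klf2 and Klf9 at 0.68 and Klf9 and Klf13 at 0.52, against 0.21 and 0.25 in Renin-null cells. The genes most like a member, over 9353 genes with a count in at least 20% of Renin-null cells, were Pi15 for Klf2 (rho 0.57, and 0.49 across the 51 WT cells), Zfp410 for Klf3 (0.53), Cbx1 for Klf4 (0.53), Lix1 for Klf5 (0.62) and Ccdc63 for Klf6 (0.51). For Klf7 it was Tns1 (0.51), for Klf9 Samd8 (0.55) and for Klf10 Tufm (0.53). The second most like genes were Gm45551, Ccdc71l, Prkx, Olfr1293-ps, Pdlim5, Ccnt2, Psme4 and Dram2, in the same order of members, and for Klf13 the second was H3f3a. With Pearson r of log2(CPM + 1) the value of Klf5 with Lix1 was 0.16, that of Klf9 with Samd8 0.33 and that of Klf10 with Tufm 0.38, and in filtered cells that of Klf3 with Zfp410 was 0.34. The values describe cells that share libraries and depth, and across WT cells those of Klf3, Klf5, Klf6, Klf7 and Klf10 with their first gene were between -0.14 and 0.18.

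Other genes of the family and its partners were read from fixed lists. Of the other Klf genes, 4 had at least 100 counts, with a median log2 ratio of -0.06. Klf16 was higher (2.41), with 3.41 in YFP1 and -0.15 in YFP2, and Klf8, a CtBP-binding member with 1 count in Renin-null cells, lower (-13.92, -19.23 to -11.45). For each of them a single cell held most of the WT counts (100% for Klf16, 99.6% for Klf8). Klf12, the highest in Renin-null cells, was at 0.53, with 1.22 in YFP1 and -0.52 in YFP2. Klf1 was not analysed here. Of the Sp factors, the nearest relatives of the family, 7 passed the count minimum with a median of 1.70. Sp7 (at least 7.497, 99.5% of them in 1 cell) and Sp4 (2.21) were more than 4-fold higher, Sp2 was at -1.29, and Sp1, the most abundant, was at 1.58. Over all genes tested, 41.7% were more than 4-fold higher and 11.3% lower, shares that stand beside the calls in both lists. The call of Sp4 was not met in YFP2 (0.69, against 3.05 in YFP1), and Sp2 was at 0.09 with log2(CPM + 1).

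Of 14 cofactors and ubiquitin ligases that act on the family, 3 were more than 4-fold higher and none lower, with a median of 1.05. Over all genes tested these shares were 41.7% and 11.3%, and 3 of 14 was below the first of them. Kat2b (acetyltransferase PCAF) was at 5.61 and Sin3b at 4.38, and Fhl3 at 2.37. The call of Fhl3 was not met with TMM factors (1.67) or in YFP2 (1.56, against 2.97 in YFP1). Set, an inhibitor of histone acetylation and the most abundant of the list (417 and 1595 CPM), was at 1.94. Hdac2 was at -0.95, with -1.95 in YFP1 and -0.45 in YFP2, and at 0.68 with its highest cell left out. In the Mekk3-Mek5-Erk5-Mef2 cascade, 1 of 6 genes was more than 4-fold higher and 2 lower (median -0.04). Map3k3 (Mekk3) was at 2.13, Map2k5 (Mek5) at -5.16 and Mapk7 (Erk5), with 2 counts in Renin-null cells, at -11.28 (-14.32 to -9.42), with 99.4% of its WT counts in 1 cell. The call of Map3k3 was not met with TMM factors (1.42) or in YFP1 (1.83, against 2.34 in YFP2). Mef2c, the most abundant, was at 1246 and 1108 CPM.

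Among 6 transducers of TGF-beta, Smad2 (7.31, 95.5% of the Renin-null counts in 1 cell) and Tgfbr1 (2.16) were more than 4-fold higher, none was lower, and the median was 1.40. Tgfbr1 was more than 4-fold lower in YFP1 (-2.13) and higher in YFP2 (3.01). Tgfbr2, the most abundant in WT, was at -0.66, with 0.18 in YFP1 and -2.19 in YFP2, and at 0.65 with its highest cell left out. Of the glucocorticoid receptor and 5 of its targets, Sgk1 (4.49) and Fkbp5 (3.12) were more than 4-fold higher and none was lower (median 0.17), and Per1 was at -1.68. Per1 was more than 4-fold lower in YFP1 (-4.66) and with TMM factors (-2.38), but at -0.89 in YFP2. Fkbp5 was at 2.14 in YFP1 and 3.62 in YFP2. Of 9 genes reported downstream of Klf2, Klf4, Klf10 or Klf15, 5 were more than 4-fold higher and none lower (median 2.73), against 41.7% and 11.3% of all genes, so that nothing particular to these genes is read from the count. The same shares stand beside the counts for the TGF-beta and glucocorticoid lists. The largest was Thbd (thrombomodulin), at 0 counts in WT and at least 11.92 higher on the log2 scale, and Cdkn1a (p21), the most abundant in Renin-null cells, was at 4.86. Ccn2, the most abundant in WT, was at -0.20 (0.05 in YFP1, -0.44 in YFP2) and Ccl2 at -1.21 (-0.27 in YFP1, -3.29 in YFP2), and with the highest cell left out Ccn2 was at 0.61 and Ccl2 was higher in Renin-null cells. Thbd is also an endothelial gene, and the endothelial markers were at 188 and 344 CPM. Their part in the Thbd difference was not tested.

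Klf2, Klf4 and Klf6 are also known to be induced when tissue is dissociated, so 18 genes of that response were examined. By summed CPM none was more than 4-fold higher or lower, none was above the median gene, and the median log2 ratio was -0.02. With the mean of log2(CPM + 1) the median was 1.18, 14 of 18 were above the median gene (0.20) and 3 were more than 4-fold higher, Btg2 (2.53), Hspb1 (2.53) and Fos (2.18), against 2.10% of all genes. With the mean over cells of CPM, Hspa1a (2.34) and Socs3 (2.09) were more than 4-fold higher, against 49.1% of all genes, and the median gene was at 1.93. Their summed level was 12381 CPM in WT against 13922 CPM in Renin-null cells, led by Fos (3043 and 3838 CPM). The largest ratio was that of Hspa1a (1.25, with -0.39 in YFP1 and 1.90 in YFP2) and the smallest that of Ier2 (-1.25). From cell to cell, Spearman rho was 0.50 for Klf6 with Atf3 and 0.47 for Klf2 with Jun over the 96 Renin-null cells. Over the 57 filtered Renin-null cells these values were 0.52 and 0.27. For Klf2 with Btg2, rho was 0.75 over the 51 WT cells, 0.45 over the 96 Renin-null cells and 0.21 over the 57 filtered ones. These values are descriptions of cells that share libraries and depth.

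**Figure D5:**
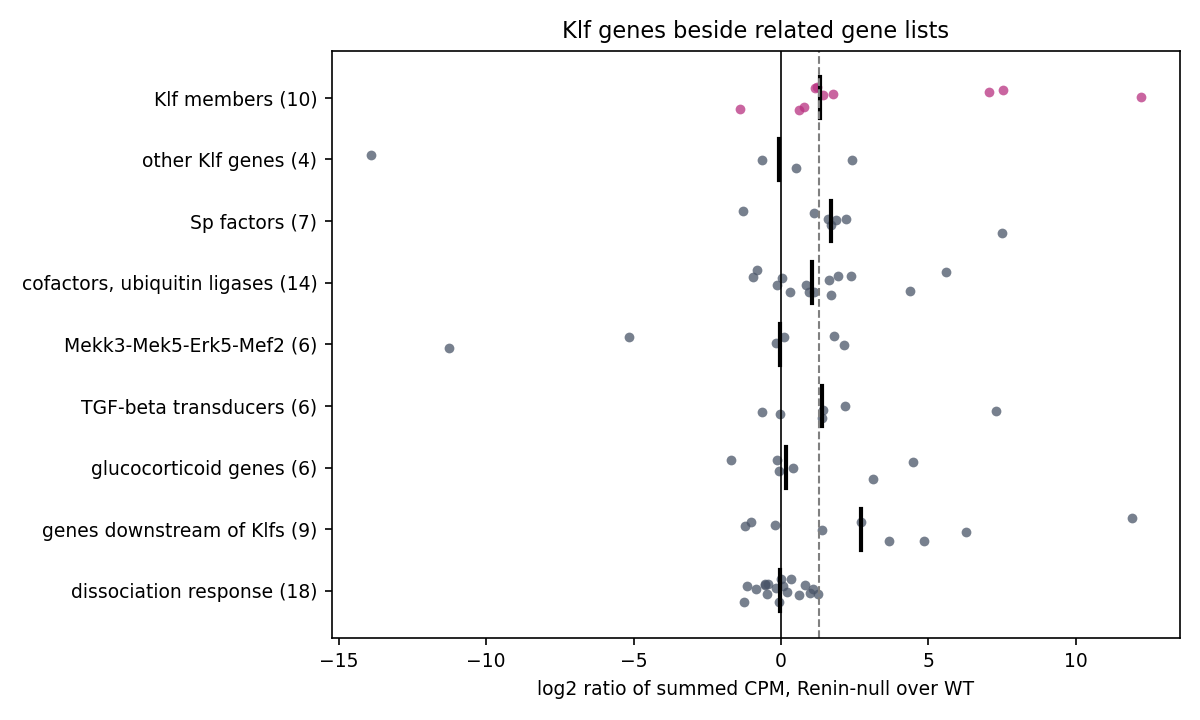
Log2 ratio of summed CPM, Renin-null over WT, for the Klf genes and related gene lists, with the number of genes with at least 100 counts in brackets. Points are genes, short bars are list medians and the dashed line is the median of all genes at 1.29; by summed CPM, genes of the dissociation response lie between -1.25 and 1.25.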

How the data were processed

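Reads were checked with FastQC 0.11.5, trimmed with Trimmomatic 0.39 and quantified with Salmon 0.11.2 on GRCm38/ENSEMBL, and transcripts were summed with tximport (lengthScaledTPM), per the labels and methods. The authors deposited the result as an expected count (estimated count) for each gene and cell, without depth normalization. Counts were rounded to whole numbers, added up within a genotype and scaled to CPM. No column of other samples was present. A group at 0 was set to 3 counts, and intervals are exact Poisson, conditional and Clopper-Pearson. The members, lists and markers were chosen with earlier results of these data known. All 10 members are named, and of each list the genes with the largest and smallest ratio and the highest CPM, and for each member except Klf15 the 2 genes with the highest Spearman rho. No genes most like Klf15 were taken. A few genes that these rules and the marker lists hold are not reported here by name. Sin3b, Fhl3, Sp4, Map2k5, Tgfbr1 and Fkbp5 were named after their values were seen. Coordinates are from GENCODE M21. The 10x experiment was not analysed here. Alternatives were TMM (edgeR 4.0.16), SCTransform (Seurat 5.3.0, sctransform 0.4.2), other weights of cells, filters and libraries. The comparison with genes of at least 10000 counts, the marker-free cells (alone, with the cell filter and without the highest cell), the count of calls with log2(CPM + 10), and the wells sharing an index were added after seeing the data. The ratio calculation was checked on simulated Poisson counts, with a profile shared by all cells of a genotype. Such counts lack the single cells that held most counts of a gene here. The check therefore does not bear on whether the intervals are wide enough for these data. Scripts ran in R 4.3.3 and in Python 3.11.15 (scipy 1.17.1, pandas 2.3.3, numpy 2.4.6).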

Additional observations from a re-analysis of the deposited data

How the results depend on the processing

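The log2 ratio of the median member, 1.31, is given here for each alternative, with that of the median gene (1.29 as reported) in brackets. It was 0.61 with TMM factors (0.58), 1.15 without mitochondrial counts (1.13) and 2.01 for the mean over cells of CPM (1.93). For the difference of mean log2(CPM + 1) and log2(CPM + 10) it was 1.18 (0.20) and 0.75 (0.090). It was 1.54 without the highest cell of each gene (2.08), 1.82 in cells thinned to 62000 counts (1.36) and 1.10 in filtered cells (1.24). Without wells of over 9000 genes it was 1.65 (1.30), in YFP1 1.28 (0.68) and in YFP2 1.44 (1.01). It was 1.33 with near-identical wells counted once (1.28) and 2.10 with SCTransform (1.86). In marker-free cells it was 4.58 (1.63), and in cells both filtered and marker-free 3.76 (2.04). The number of members more than 4-fold higher, 3, became 5 for the mean over cells (49.1% of all genes) and for SCTransform (47.9%), with Klf2 and Klf4 added. It was 6 of 9 in marker-free cells (46.3%) and 5 of 9 in cells both filtered and marker-free (50.2%). It became 4 in YFP2 (37.7%) and without the highest cell of each gene (50.9%), with Klf3 added. In thinned cells it was also 4 (38.2%), with Klf2 and Klf4 in and Klf15 out. At a 2-fold limit it was 7, a limit that the log2 ratio of the median gene, 1.29, also passed. It became 2 with log2(CPM + 1), where Klf2 and Klf10 passed and Klf5 (0.65) and Klf15 (0.27) did not, and 0 with log2(CPM + 10), scales on which 2.10% and 0.463% of all genes passed. In thinned cells Klf15 was at 0.46. The number lower, 0, became 1 with TMM factors (15.5% of all genes) and at a 2-fold limit (18.4%), Klf7 in both. It was also 1 in cells both filtered and marker-free (15.2%), where it was Klf6. The difference in the median number of members per cell, 2, was 1 at 1 count, in thinned cells and in YFP1 and 0 in filtered cells. Directions reversed for Klf3 with log2(CPM + 1), -0.66, and log2(CPM + 10), -0.063, for Klf7 with log2(CPM + 10), 0.044, in marker-free cells, 2.64, and in those that were also filtered, 1.81, for Klf6 in marker-free cells, -1.34, and in those also filtered, -2.24, both with 1 WT cell holding most of the counts, and for Klf9 with TMM factors, -0.10, and in YFP2, -0.33. With the highest cells removed, the marker-free ratio was 0.78 for Klf6, 6.23 for Klf7 and -0.16 for Klf9, and in cells also filtered it was -0.27 for Klf6, 7.59 for Klf7, -0.68 for Klf9 and -0.050 for Klf13. Counts may spread between wells that share an index. The share of wells with a count was higher in wells sharing an index with the gene's highest well for 6 of 7 members in WT, 5 of 9 in YFP1 and 6 of 8 in YFP2, and the share at 10 CPM or more for 6, 4 and 7 of them. For Klf4 in WT, 12 of 14 sharing wells and 11 of 36 others held a count, and for Klf10 in YFP2, 8 of 14 sharing wells and 10 of 33 others were at 10 CPM or more. The part of such spread in the results was not tested. No paired analysis was possible because cell numbers of the genotypes do not overlap and no test was run.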
